A study of Mus musculus with 12 samples.

Results

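The genes described here were the 8 that write, copy or remove cytosine methylation in the mouse: the methyltransferases Dnmt1, Dnmt3a and Dnmt3b, the cofactors Dnmt3l and Uhrf1, and the dioxygenases Tet1, Tet2 and Tet3. They were chosen by name, as the rows of the gene count table whose Ensembl identifier carries 1 of these symbols, and all 8 were found among the 55401 genes of the table. The rule itself used no measured value, although earlier results of these data were known when the genes were chosen.

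DNA methylation marks cytosines, mostly those followed by a guanine, and helps to hold genes and transposons silent. Dnmt1 copies the marks onto the new DNA strand after replication, and Uhrf1 brings it to hemimethylated sites. Dnmt3a and Dnmt3b place marks on unmethylated DNA, Dnmt3l stimulates them without being an enzyme itself, and the Tet proteins oxidise methylcytosine on the way to its removal. In the mouse, oocytes of primordial follicles carry little methylation, and most of the oocyte pattern, the maternal imprints included, is laid down while the oocyte grows, by Dnmt3a with Dnmt3l.

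The libraries were made from oocytes cut by laser capture out of sections of ovaries from juvenile female C57Bl/6j x CBA/J mice. There were 4 groups of 3 libraries: oocytes of primordial follicles without dorsomorphin (DM), of primordial follicles with DM, of primary follicles without DM and of primary follicles with DM. DM inhibits AMPK, the kinase that senses low cellular energy, and the study asked how it changes gene expression as dormant follicles become active. By the methods the ovaries were cultured whole with DM or with its solvent DMSO, then fixed in paraformaldehyde, embedded in paraffin, sectioned and stained before the capture. What fixation did to the RNA was not tested. The sample labels, in contrast, call the control sham and describe the material as in vivo. Oocytes of the same stage were pooled for each RNA extraction and the RNA was amplified, and the sources used here do not say which animals entered which library. The paper describes the 3 samples of each group as biologically independent, each a pool of captured oocytes. Since the animals behind each library are not given, replicate numbers are used here only for separate libraries. P-values measure the spread between libraries, which may in part be technical.

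The libraries held between 14034586 and 42639326 counts on genes, and between 4206 and 10687 genes had over 3 counts. A count of 0 allows up to 3 counts, which is 0.0704 to 0.214 CPM (counts scaled to the library's total) in these libraries, for counting error only. Primary control 3 had the fewest genes detected, and 51.2% of its counts were on its top 100 genes. Primary DM 2 and primary DM 3 followed in that share, at 48.5% and 43.7%. The next fewest genes were detected in the 3 primary DM libraries, at 4670 to 5314, and in primordial DM 3, at 5216. The oocyte markers Ddx4, Kit and Padi6 had over 3 counts in all 12 libraries, but so did the granulosa cell markers Foxl2 and Wt1 and the stromal collagens Col1a1, Col1a2 and Col3a1. Some other oocyte markers were missing from most libraries, with Oosp1 over 3 counts in 2 and Figla and Npm2 in 3. Of 17 oocyte markers, 11 to 14 were over 3 counts in a primordial control library and 4 to 11 in a primordial DM library. The ranges were 9 to 15 in primary control and 6 to 11 in primary DM. The marker sums that follow are CPM after TMM scaling, which adjusts each library's total, so they differ from CPM by library total. The summed level of the 17 oocyte markers was 20.5 to 919 CPM in primordial control and 17.3 to 866 in primordial DM libraries. It was 50.8 to 590 in primary control and 94.7 to 4345 in primary DM libraries. The sum of 11 granulosa markers ran from 832 to 1676 CPM, from 253 to 1598, from 709 to 32430 and from 1319 to 55590 CPM in the same groups, with Fshr and Cyp19a1 at 0 in every library. The sum of 10 stromal and theca markers ran from 1381 to 2938, from 1327 to 3333, from 1501 to 23710 and from 5822 to 21510 CPM. The libraries therefore held RNA of cells around the oocyte as well, and less of a transcript per cell cannot be told apart from fewer cells that carry it.

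All positions below are on GRCm38, the build also named mm10. The maintenance genes are Dnmt1 (ENSMUSG00000004099.16), on chromosome 9 from 20907209 to 20959888 on the minus strand, and Uhrf1 (ENSMUSG00000001228.14), on chromosome 17 from 56303321 to 56323486 on the plus strand. The de novo genes are all on the plus strand: Dnmt3a (ENSMUSG00000020661.15) on chromosome 12 from 3806007 to 3914443, Dnmt3b (ENSMUSG00000027478.15) on chromosome 2 from 153649450 to 153687730, and Dnmt3l (ENSMUSG00000000730.13) on chromosome 10 from 78041947 to 78063622. The Tet genes are all on the minus strand: Tet1 (ENSMUSG00000047146.17) on chromosome 10 from 62804570 to 62908996, Tet2 (ENSMUSG00000040943.12) on chromosome 3 from 133463679 to 133545139, and Tet3 (ENSMUSG00000034832.15) on chromosome 6 from 83362373 to 83459084. Reads were counted over the exons of each gene, whose merged length runs from 2988 bases in Dnmt3l to 16870 bases in Tet2. Exons on the opposite strand overlap those of Dnmt3a by 133 bases (Dnmt3aos), of Dnmt3l by 67 bases (Aire) and of Tet2 by 43 bases (Gm42567), and whether the counting used strand is not given in the sources used here. Dnmt3b has a close copy, Dnmt3c, so reads could be shared between them, and Dnmt3c was at 0 in every library.

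The 8 genes fell into 3 tiers of detection. Dnmt3a and Tet3 had over 3 counts in all 12 libraries, Dnmt1 and Tet2 in 11 and Uhrf1 in 9. Dnmt3b and Tet1 passed 3 counts in 3 libraries each, and Dnmt3l had no count in any library. The number of these genes over 3 counts was 6 in each primordial control library, 5 in each primordial DM library, 5 or 6 in primary control and 4 in each primary DM library. Over all genes, 7085 to 10687 were over 3 counts in primordial control and 5216 to 7616 in primordial DM libraries. The ranges were 4206 to 7839 in primary control and 4670 to 5314 in primary DM, so fewer genes were detected there in general.

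**Figure D1:**
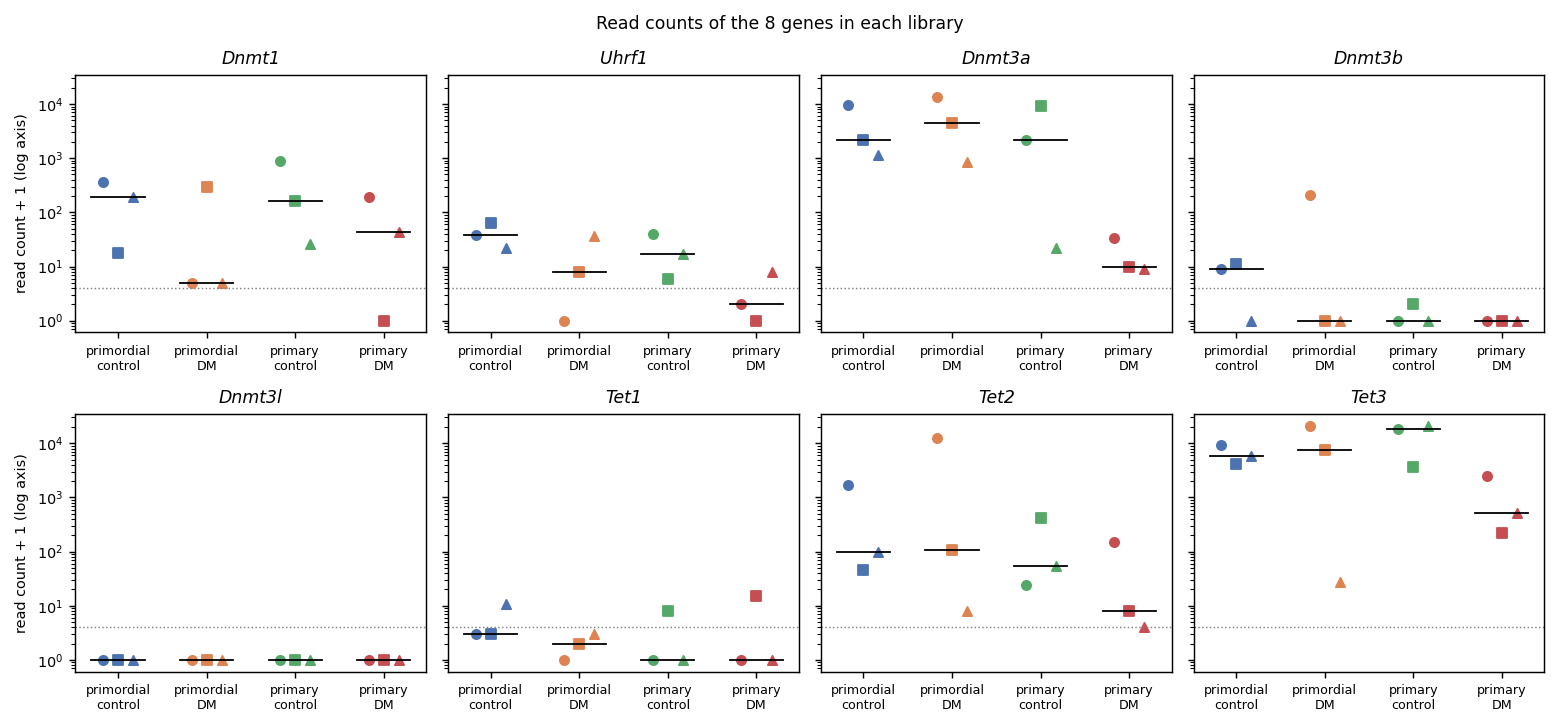
Read count plus 1 on a log axis for each of the 8 genes, by group; circles, squares and triangles are replicates 1, 2 and 3, the black line is the median of the 3 libraries, and the dotted line marks 3 counts. Dnmt3a sits between 8 and 33 counts in the 3 primary DM libraries and at 21 in primary control 3, while Dnmt3l is at 0 throughout.

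Levels of different genes were compared as CPM after TMM scaling, divided by the exon length in kilobases. That scale assumes that reads spread evenly over the exons, which was not tested. The methods name both TruSeq RNA Access and Smart-seq II for the libraries, so the order of genes on that scale is a description. On that scale the median over 12 libraries was 7.68 for Tet3, 2.46 for Dnmt3a, 0.431 for Dnmt1, 0.188 for Tet2, 0.0978 for Uhrf1, 0.00135 for Tet1 and 0 for Dnmt3b. Tet3, the oxidase that is stored in the egg, had the highest median level of the 8 in each of the 4 groups. Dnmt3a came next in 3 groups, and in primary DM it fell behind Dnmt1 to the third place. Tet3 and Dnmt3a together made up 72.2% to 99.2% of the summed level per kilobase of the 8 genes in a library. The libraries differed in which of the pair led: Dnmt3a held 82.5% of that sum in primordial DM 3 and 68.1% in primary control 2, and Tet3 held 99.1% in primary control 3.

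The neighbours in this order mostly overlapped. In primordial control, Tet3 ran from 4.88 to 13.5 CPM per kilobase and Dnmt3a from 2.51 to 5.48, so the ranges met. In primordial DM and primary control the ranges of Tet3 and Dnmt3a overlapped as well, and so did those of Dnmt1 and Tet2 in all 4 groups. In primary DM, Tet3 at 1.22 to 9.21 CPM per kilobase lay above Dnmt3a at 0.0334 to 0.121 in every library. Among the genes with over 3 counts in a library, Tet3 exceeded 61.7% to 86.7% of them by its level per kilobase in 11 libraries and 18.1% in primordial DM 3. Dnmt3a exceeded 55.4% to 82.5% of them in 8 libraries and 2.29% to 24.8% in the other 4.

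Spread between libraries of a group was large. The SD of log2(CPM + 1) within groups, after TMM scaling, was 2.46 for Tet3, 2.43 for Tet2, 1.74 for Dnmt3a and 1.51 for Dnmt1. The median was 2.26 over the 8500 genes that passed the filter in the fit of the 12 libraries together. The standard error of a fold change was about as wide, with a median over all genes of 2.82 to 3.14 on the log2 scale in the 4 comparisons of groups. Each group enters more than 1 comparison, so the comparisons share libraries and are not independent.

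Dnmt1, the maintenance enzyme, had 360, 17 and 193 counts in the primordial controls and 4, 297 and 4 in the primordial DM libraries. The primary controls had 896, 158 and 25 counts of it, and the primary DM libraries 192, 0 and 43. The groups overlapped at both stages, with 1 primordial and 2 primary DM libraries within the range of their controls. By edgeR's quasi-likelihood test, the log2 fold change of Dnmt1 with DM was -0.70 (SE 2.59, adjusted p = 0.967) in primordial and -1.08 (SE 2.57, adjusted p = 0.833) in primary follicles. DESeq2's size factors turned the primary value to 0.28.

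Uhrf1, the reader of hemimethylated DNA that works with Dnmt1, had 37, 62 and 21 counts in the primordial controls and 0, 7 and 35 with DM. Its counts in primary follicles were 39, 5 and 16 without and 1, 0 and 7 with DM. The counts with DM lay mostly below those of the controls, but 1 DM library at each stage was within the control range. The fitted log2 fold change was -0.50 (SE 2.14, adjusted p = 0.974 by edgeR) in primordial and -2.42 (SE 2.28, adjusted p = 0.570) in primary follicles. With DESeq2's size factors the primordial value was 0.44, and by library size alone the primary groups did not overlap.

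Dnmt3a, the main de novo enzyme of the growing oocyte, had 9740, 2157 and 1147 counts in the primordial controls and 13351, 4527 and 854 in the primordial DM libraries. In primary follicles the controls had 2126, 9366 and 21 counts and the DM libraries 33, 9 and 8. In raw counts the primordial groups overlapped, while all 3 primary DM libraries and primary control 3 were at the low end of the 12.

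Per kilobase, the level of Dnmt3a was 3.56 ± 1.67 CPM (SD, n = 3) in primordial control, 7.66 ± 6.06 in primordial DM, 6.22 ± 8.64 in primary control and 0.0678 ± 0.0464 in primary DM. The first 3 of these did not differ beyond their spread, and neither did primary control and primary DM, as the SD of primary control exceeded its mean. The fitted log2 fold change with DM was 1.08 (SE 2.66, adjusted p = 0.954, edgeR) in primordial follicles and -7.13 (SE 3.82, adjusted p = 0.396, edgeR) in primary follicles. The primary value had an unadjusted p of 0.0618 and did not pass the test, and adjusted p ranged from 0.0855 with DESeq2 to 0.999 over the alternatives. It was -4.46 without primary control 2 and -7.50 (adjusted p = 0.253) without primary control 3.

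Whether the groups overlapped in Dnmt3a depended on the scaling. In primordial follicles they overlapped after TMM, by library size alone and in raw counts, but with DESeq2's size factors the DM libraries, at 115 to 331 CPM, lay above the controls, at 62.0 to 86.0 CPM. In primary follicles after TMM the DM libraries ran from 0.371 to 1.12 CPM and the controls from 1.78 to 252 CPM, and the groups were also apart with DESeq2's size factors. In raw counts and by library size alone they overlapped, since primary DM 1 had 33 counts and primary control 3 had 21. The median fold change of all genes with DM in primary follicles was 0.31 with TMM, 2.04 with DESeq2's size factors and -0.96 by library size alone, and relative to these medians Dnmt3a was at -7.45, -6.50 and -7.94. These scalings were compared after the values had been seen.

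Between stages, the log2 fold change of Dnmt3a from primordial to primary follicles was 0.86 (SE 2.50, adjusted p = 0.986, edgeR) in controls and -7.13 (SE 3.59, adjusted p = 0.290, edgeR) with DM. With DM the 2 stages were apart in raw counts and on each of the 3 scalings, with 854 or more counts in primordial and 33 or fewer in primary follicles. The unadjusted p of that difference was 0.0513, and its value stayed between -7.81 and -6.24 when each library was left out in turn. DESeq2 gave -5.48 with an adjusted p of 0.0249, which was the only call of any of the 8 genes under any setting tried, and DESeq2 called 24.3% of the 4066 genes with an adjusted p in that comparison. In controls the direction rested on primary control 2, without which the value was -1.39. The difference between the DM effects of the 2 stages was -7.62 (SE 4.31, adjusted p = 0.308 by edgeR's interaction term) and did not pass the test either.

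Fewer genes were detected in the libraries with low Dnmt3a. The 4 libraries with 8 to 33 counts of Dnmt3a had 4206 to 5314 genes over 3 counts, and the 8 libraries with 854 to 13351 counts had 5216 to 10687 such genes. After TMM scaling the lowest stromal marker sum in primary DM, 5822 CPM, was above the highest of both primordial groups, 3333 CPM. The primary controls ran from 1501 to 23710 CPM on that scale. By library size the stromal sums of the primary DM libraries overlapped those of the primordial groups. The part of detection and of other cells in the Dnmt3a values was not tested. Of the 5 libraries with the fewest genes, 4 also had the lowest Tet3 levels, at 1.24 to 92.0 CPM by library size, while primary control 3 had the highest, at 684 CPM.

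**Figure D2:**
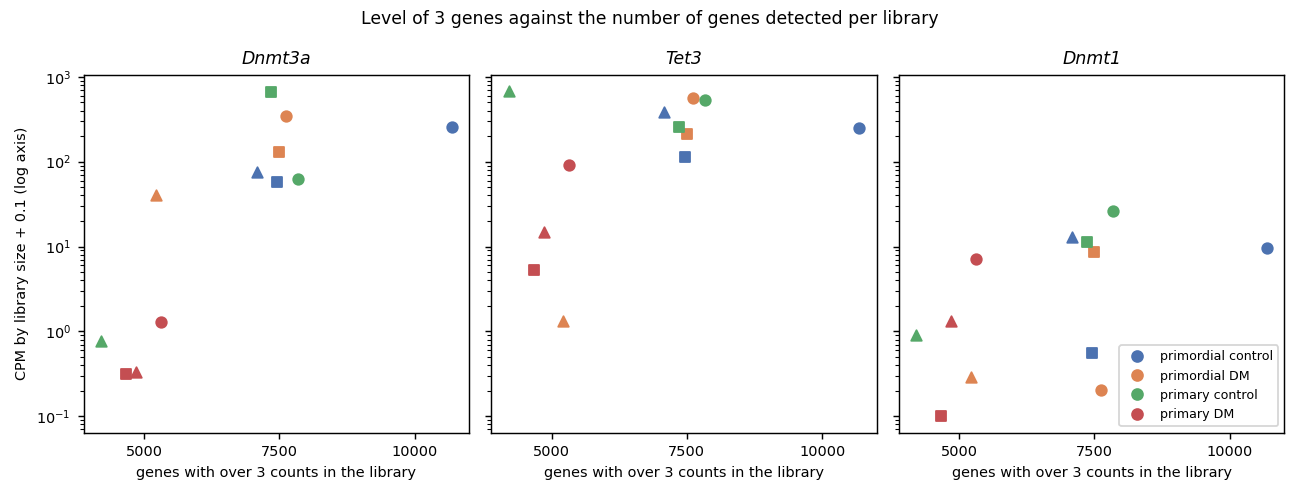
CPM by library size plus 0.1, on a log axis, against the number of genes with over 3 counts in each library, for Dnmt3a, Tet3 and Dnmt1; colours are groups and circles, squares and triangles are replicates 1, 2 and 3. The 4 libraries with low Dnmt3a all lie at 5314 genes or fewer, and primary control 3, at 4206 genes, combines low Dnmt3a with high Tet3.

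Dnmt3b, the de novo enzyme that is mainly used in the early embryo, had 8, 10 and 0 counts in the primordial controls and 212, 0 and 0 with DM. In primary follicles it had a single count in 1 control library and none elsewhere. Dnmt3b was therefore over 3 counts only in 3 primordial libraries, and nearly all its reads came from primordial DM 1. It did not pass the filter in any comparison. In a fit without the filter its log2 fold change with DM in primordial follicles was 3.73 (SE 3.49, adjusted p = 0.608, edgeR), which became -5.23 without primordial DM 1. With DM its level in primary follicles was at least 7.06-fold lower than in primordial follicles, taking 3 counts per library for the primary group, and that bound rested on primordial DM 1 alone. No fold is given for Dnmt3b in the other comparisons, where the counts were too few.

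Dnmt3l, which Dnmt3a needs to imprint the oocyte genome, was at 0 in all 12 libraries. With totals of 14034586 to 42639326 counts, its level was under 0.0704 to 0.214 CPM, counting error only. No comparison of Dnmt3l between groups was possible.

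Tet1, the oxidase known from embryonic stem and primordial germ cells, had 2, 2 and 10 counts in the primordial controls and 0, 1 and 2 with DM. Primary follicles had 0, 7 and 0 counts without and 0, 14 and 0 with DM. No group had more than 1 library over 3 counts, and the highest was primary DM 2. Without the filter the log2 fold change of Tet1 with DM in primary follicles was 2.13 (SE 2.87, adjusted p = 0.613, edgeR), and it was -4.10 without primary DM 2. Between stages in controls it was -0.87 (SE 2.72, adjusted p = 0.893, edgeR). In primordial follicles Tet1 was at least 1.81-fold lower with DM, and with DM it was at least 4.39-fold higher in primary than in primordial follicles, but each bound rested on 1 library.

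Tet2, the oxidase best known from blood cells, had 1695, 44 and 99 counts in the primordial controls and 12783, 108 and 7 with DM. Among primary libraries the controls had 23, 421 and 53 counts and those with DM 150, 7 and 3. Each group held 1 library far above the others, and the groups overlapped at both stages. The log2 fold change with DM was 3.47 (SE 3.26, adjusted p = 0.809, edgeR) in primordial follicles and turned to -2.26 without primordial DM 1. In primary follicles it was -1.52 (SE 2.56, adjusted p = 0.762, edgeR). The largest stage difference of Tet2, -5.00 with DM (SE 3.27, adjusted p = 0.384, edgeR), became 0.93 without primordial DM 1.

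Tet3 had 9369, 4215 and 5778 counts in the primordial controls and 21290, 7470 and 26 with DM. The primary controls had 18125, 3589 and 21287 counts, and the primary DM libraries had 2530, 223 and 511. In primordial follicles 2 DM libraries were within or above the control range and the third was far below, and in primary follicles every DM library had fewer counts than every control.

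The level of Tet3 per kilobase was 7.86 ± 4.84 CPM (SD, n = 3) in primordial control, 11.0 ± 11.3 in primordial DM, 58.7 ± 79.1 in primary control and 4.19 ± 4.38 in primary DM. Neighbours in that order did not differ beyond their spread. In primary follicles the log2 fold change with DM was -4.13 (SE 3.45, adjusted p = 0.526, edgeR), with an unadjusted p of 0.232, and the value was -1.85 without primary control 3. The primary groups were apart after TMM, at 12.4 to 85.8 CPM with DM and 96.7 to 1800 CPM in controls, and also by library size and in raw counts, but overlapped with DESeq2's size factors. Relative to the median of all genes the value was -4.44 with TMM, -6.68 with DESeq2's size factors and -2.77 by library size. DESeq2 gave -3.96 with no adjusted p for this gene. In primordial follicles the fold change of Tet3 with DM was 0.44 (SE 2.28, adjusted p = 0.980, edgeR) and ran from -0.59 to 1.10 when each library was left out.

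From primordial to primary follicles in controls, Tet3 had a log2 fold change of 2.58 (SE 2.28, adjusted p = 0.865, edgeR), which was 0.79 without primary control 3. The other genes had values of 1.03 for Dnmt1 (SE 2.92, adjusted p = 0.986), -0.02 for Uhrf1 (SE 2.25, adjusted p = 0.998) and -0.27 for Tet2 (SE 2.91, adjusted p = 0.991), all by edgeR. With DM the stage difference was -1.75 for Tet3 (SE 2.97, adjusted p = 0.765, edgeR) and 0.83 for Dnmt1 (SE 2.34, adjusted p = 0.862, edgeR). That of Uhrf1, which did not pass the filter there, was -1.79 in a fit without it (SE 3.09, adjusted p = 0.690, edgeR). The differences between the DM effects of the stages were -0.07 for Dnmt1 (SE 4.17), -1.90 for Uhrf1 (SE 3.79), -4.39 for Tet2 (SE 4.16) and -4.30 for Tet3 (SE 3.64), and none passed edgeR's interaction test.

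**Figure D3:**
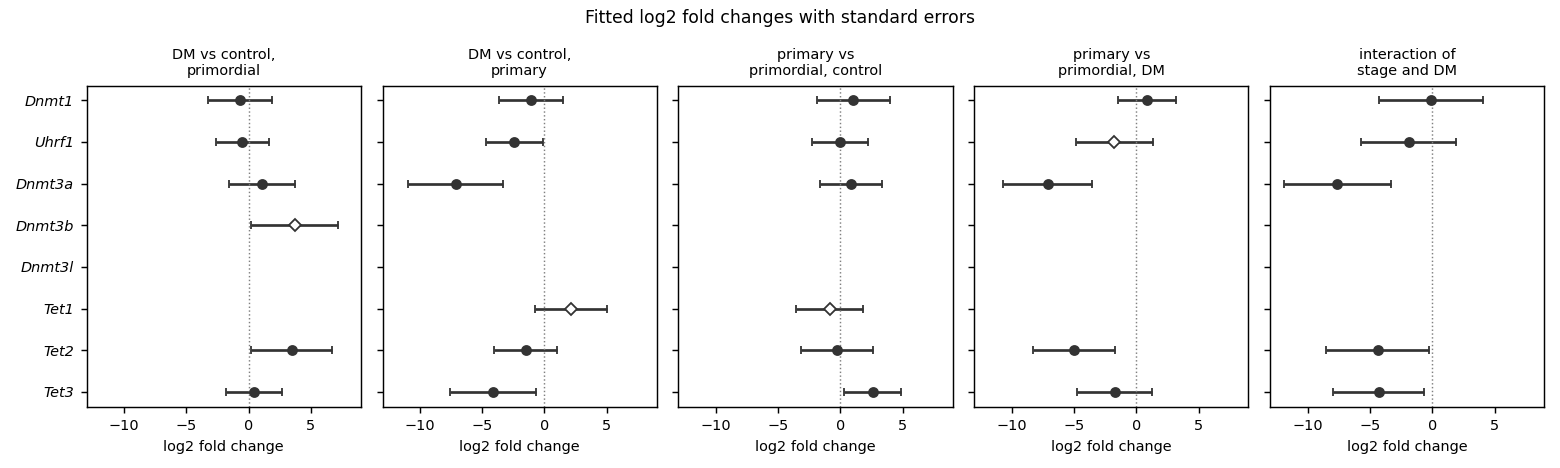
Log2 fold changes of the 8 genes in the 4 comparisons of groups and in the interaction of stage and DM, with standard errors as bars; filled circles are genes that passed the filter on low counts, and open diamonds are values from a fit without it. No gene passed the test in any panel, and Dnmt3a lies farthest from 0 in 3 panels, at -7.13 for DM in primary follicles, -7.13 between stages with DM and -7.62 in the interaction.

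Counted over the 8 genes, 5 passed the filter for DM in primordial follicles and 0 passed edgeR's test at an adjusted p under 0.05. Over all genes 1 of 6699 passed, 0.0149%. For DM in primary follicles 5 passed the filter and 0 the test, beside 0% of 4181 genes, and for the stages 5 in controls and 4 with DM passed the filter and 0 the test, beside 0% of 6726 and 0% of 4331 genes. In the interaction 6 passed the filter and 0 the test, beside 0% of 8500 genes. At an unadjusted p under 0.05 in edgeR's main fits the count of these genes was 0 in all 5 tests, while over all genes it was 491, 508, 433, 746 and 1605. With DESeq2 it was 1 of 7 for DM in primary follicles, between stages with DM and in the interaction. Over all genes DESeq2 had 1600 of 9529, 1788 of 9631 and 1394 of 11980 there. The count was also 1 in some edgeR fits by library size alone or with a library left out. DESeq2 gave an adjusted p to 4, 4, 4, 5 and 5 of the 8 genes in these tests and called 0, 0, 0, 1 and 0 of them. Of all genes with an adjusted p it called 12.5% of 5484, 21.2% of 3385, 5.59% of 5189, 24.3% of 4066 and 11.4% of 5161, so 1 of 5 in the stage comparison with DM was near the share of all genes.

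The libraries of the 2 groups did not overlap in TMM CPM for 0 of the 5 genes with DM in primordial follicles, beside 12.6% of all genes tested. With DESeq2's size factors this was 1 of 5, Dnmt3a, higher with DM, beside 12.2% of all genes. In primary follicles 2 of 5 did not overlap, Dnmt3a and Tet3, both lower with DM, beside 13.3% of all genes. Between stages 0 of 5 were apart in controls, beside 9.55% of all genes, and 1 of 4, Dnmt3a, was apart with DM, beside 16.2%. The median log2 fold change of the genes that passed was 0.44 and -2.42 with DM in primordial and primary follicles, and 0.86 and -3.38 between stages in controls and with DM. Over all genes these medians were 0.13, 0.31, -0.31 and 0.35. In primary follicles all 5 values with DM were below 0 with TMM, but with DESeq2's size factors Dnmt1 was above 0.

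**Figure D4:**
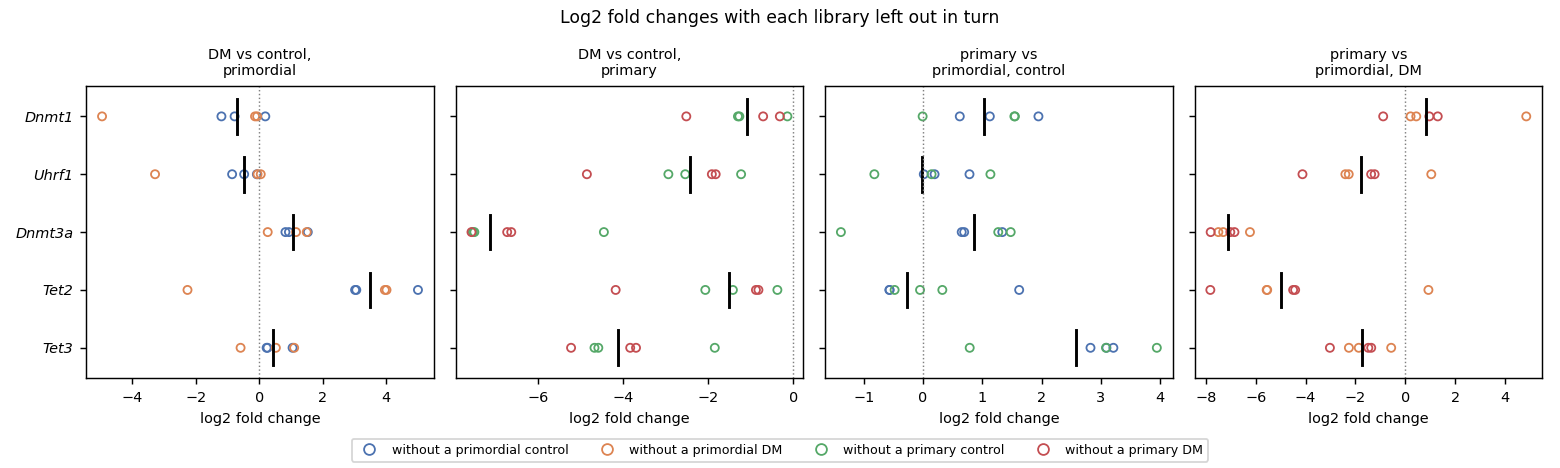
Log2 fold changes of Dnmt1, Uhrf1, Dnmt3a, Tet2 and Tet3 by edgeR with each library left out in turn (circles, coloured by the group that lost a library), with the value over all 6 libraries as a black bar. Dnmt3a stays below 0 in every fit of DM in primary follicles and of the stages with DM, whereas Tet2 crosses 0 without primordial DM 1.

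Other genes of the pathway were taken from a list of 47, which holds further readers of methylation, imprint protectors, base excision enzymes, histone modifiers and enzymes of methyl donor supply. Of these 12 had over 3 counts in every library and 5 in none, and Dnmt3c, Trdmt1, Apobec1 and Nlrp2 were at 0 throughout. Of the list 30, 23, 33, 23 and 37 genes passed the filter in the 5 tests, and 0 passed edgeR's test in any of them, in either direction. At an unadjusted p under 0.05 by edgeR there was 1 lower of 30 in DM against control in primordial follicles, and 1 higher of 23 in primary follicles. Between stages there were 1 higher and 2 lower of 33 in controls, and 1 lower of 23 with DM. In the interaction there were 1 higher and 3 lower of 37. Over all genes tested these counts, in either direction, were 491 of 6699, 508 of 4181, 433 of 6726, 746 of 4331 and 1605 of 8500. DESeq2 called Uhrf2, Zbtb33 and Mat2b of 28 genes with an adjusted p for DM in primordial follicles, and Tdg, Kdm1b and Idh2 of 10 in primary follicles. In primary follicles Idh2 was higher with DM, and Kdm1b and Tdg were lower. Tdg was over 3 counts in 3 libraries only, and its bound there, at least 20.4-fold lower, rested on 1 control library. DESeq2 called 0 of 25 between stages in controls, Uhrf2 of 16 between stages with DM, and Uhrf2 and Mbd2 of 19 in the interaction. The shares of all genes that DESeq2 called in these tests were 12.5%, 21.2%, 5.59%, 24.3% and 11.4%, and edgeR called none of the genes named.

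With DM, the groups of libraries did not overlap in TMM CPM for 2 of 30 list genes in primordial and 1 of 23 in primary follicles. Between stages this was 3 of 33 in controls and 0 of 23 with DM. The shares of all genes tested were 12.6%, 13.3%, 9.55% and 16.2%. The genes described next were picked because their groups did not overlap. Mat2b, the regulatory subunit of the enzyme that makes the methyl donor S-adenosylmethionine, had 4181, 9453 and 7307 counts in the primordial controls and 4, 42 and 6 with DM. The groups were far apart, yet the log2 fold change of -8.63 (SE 3.72) had an adjusted p of 0.655 by edgeR. Setdb1, a histone H3 lysine methyltransferase, had 6580, 4148 and 8576 counts in the same controls and 304, 469 and 6 with DM, for a log2 fold change of -4.90 (SE 3.16, adjusted p = 0.681, edgeR).

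In primary follicles Trim28, the corepressor that protects imprints, had 4954, 1740 and 446 counts in controls and 51, 14 and 232 with DM, a log2 fold change of -3.49 (SE 3.10, adjusted p = 0.548, edgeR). From primordial to primary follicles in controls the methyl-CpG binding genes Mbd2 and Mbd3 had log2 fold changes of -8.12 (SE 3.78) and -7.29 (SE 3.67), each with an adjusted p of 0.749 by edgeR. Mbd2 had 1131, 601 and 5428 counts in primordial and 7, 8 and 5 in primary controls. Mbd3 had 2152, 3339 and 3371 counts in primordial and 24, 1 and 10 in primary controls. Ehmt1, a histone H3 lysine methyltransferase, moved the same way by -4.34 (SE 3.14, adjusted p = 0.830, edgeR). None of these differences passed the test. The highest median levels of the list were those of Usp7, which stabilises Dnmt1 and Uhrf1, at 71.2 CPM per kilobase, Ogt at 46.9 and Idh1 at 31.0, all above the 7.68 of Tet3.

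The genes whose levels over the 12 libraries were most like those of each of the 8 were found by the mean absolute difference in log2(CPM + 1) after centring. For Dnmt3a these were Git1 at 0.846 and Pcnx at 0.933, where the median gene was at 2.51. For Tet3 they were Eprs at 1.00 and Stx5a at 1.12, with a median of 2.50. For Dnmt1 they were Nckap5l at 0.799 and Rnf168 at 0.858, with a median of 2.03, and for Tet2 Pde4dip at 0.732 and Rnpc3 at 0.795, with a median of 2.19. For the low genes Uhrf1 and Tet1 they were Mmp23 at 0.258 and Nusap1 at 0.278, and Cenpx at 0.0635 and Mtfr1 at 0.0826. The points share library, depth and scaling, so the values are descriptions only.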

How the data were processed

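The authors' deposited file held counts of reads per gene for 12 libraries, without normalization. Per the submitters' processing notes, reads were trimmed with Trim Galore, mapped to mm10 with STAR and counted with featureCounts, whereas the paper's methods name TopHat2 as the aligner. The versions of the aligner and of featureCounts are not given in the sources used here. The GENCODE M21 annotation of GRCm38 gave positions and exon lengths. A separate list of gene names, matched on the Ensembl identifier without its version, gave a symbol for 55141 of the 55401 identifiers. Libraries were grouped by their labelled stage and treatment. Library pairs within a group differed by far more than sampling noise (smallest chi-square per degree of freedom 1588), so each was kept as 1 sample.

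Each comparison of 2 groups used edgeR 4.0.16 in R 4.3.3 (filterByExpr, TMM, quasi-likelihood test, prior count 0.125) on its 6 libraries, and the interaction used all 12. P-values were adjusted over all genes tested by Benjamini and Hochberg, with a threshold of 0.05, and a standard error is the fold change divided by the root of F. Genes that did not pass the filter were taken from a fit without it. Folds against a group with no library over 3 counts were given as bounds, at 3 counts per library. The code was tested on simulated counts. Alternatives were DESeq2 1.42.0, its size factors in edgeR, TMMwsp, scaling by library size alone, a fit without the filter or with a minimum of 10 counts per library, the replicate number as a block, a prior count of 2, an unadjusted p, 1 fit over all 12 libraries, and leaving out each library. Tables were made with Python 3.11.15 and pandas 2.3.3.

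The 8 genes, the pathway list and the marker lists were chosen with earlier results of these data known. From the pathway list were named, per comparison, the higher and the lower genes, at most 3 each, that changed most among those with groups that did not overlap, and the 3 with the highest median level, and for each of the 8 genes that passed the filter the 2 most alike genes. Genes that DESeq2 called were named besides.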

Additional observations from a re-analysis of the deposited data

How the results depend on the processing

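Depth sets a floor of at most 0.214 CPM, for counting error only, and what else limits detection was not tested. The fold changes given had standard errors of 2.14 or more on the log2 scale with 3 libraries a group. No fold change of the 8 genes passed the threshold on the adjusted p in edgeR under any alternative run. DESeq2 called 1, Dnmt3a between stages with DM (-5.48, adjusted p = 0.0249, against 0.290 in edgeR, with 0.0249 to 0.977 over the alternatives), where it called 24.3% of all genes with an adjusted p. Of 28 fold changes, 17 changed sign when some library was left out and 10 under another setting, in 25 of 198 and 21 of 228 fits. The cause was not tested. With each library left out, 0 of the 8 genes passed in every comparison.

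Reversals were as follows. For DM in primordial follicles, Uhrf1 became 0.40 with DESeq2 and 0.44 with its size factors in edgeR. For DM in primary follicles, Dnmt1 became 0.71 with DESeq2 and 0.28 with its size factors in edgeR, and Tet1 became -0.53 by library size alone. Between stages in controls, Uhrf1 became 1.86 with DESeq2, 2.19 with its size factors, 2.40 with TMMwsp, 0.38 with no filter and 0.21 with all 12 libraries in 1 fit, and Tet2 became 1.53, 1.72 and 1.30 with the first 3 of these. Between stages with DM, Dnmt1 became -0.15 by library size alone, and Tet3 became 0.059 with DESeq2 and 0.25 with its size factors. In the interaction Dnmt1 became 1.51 with DESeq2 and 1.56 with its size factors.

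With each library left out, the log2 fold change with DM in primordial follicles ran from -4.95 to 0.19 for Dnmt1, -3.28 to 0.047 for Uhrf1, -5.23 to 4.75 for Dnmt3b, -2.26 to 5.00 for Tet2 and -0.59 to 1.10 for Tet3. For Tet1 in primary follicles it ran from -4.10 to 5.98. Between stages in controls it ran from -0.0065 to 1.95 for Dnmt1, -0.82 to 1.14 for Uhrf1, -1.39 to 1.48 for Dnmt3a, -5.72 to 1.37 for Tet1 and -0.57 to 1.62 for Tet2. With DM it ran from -0.89 to 4.85 for Dnmt1, -4.13 to 1.04 for Uhrf1 and -7.83 to 0.93 for Tet2. In the interaction it ran from -1.84 to 3.87 for Dnmt1, -4.63 to 0.70 for Uhrf1 and -7.57 to 0.92 for Tet2.

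Over all genes, edgeR called 1, 0, 0, 0 and 0 in the 5 tests, and DESeq2 686, 718, 290, 988 and 586. In primordial follicles with DM, edgeR called 0 with DESeq2's size factors, by library size alone, with no filter, with at least 10 counts in every library, with the replicate block and with all 12 libraries in 1 fit. Between stages in controls it called 4 with at least 10 counts in every library and 1 by library size alone. Replicate numbers did not pair the libraries, whose deviations from their group means correlated at -0.0562 to 0.0509 between equal numbers. With the replicate block the genes at an unadjusted p under 0.05 fell from 491, 508, 433, 746 and 1605 to 187, 58, 93, 123 and 533, Tet3 with DM in primordial follicles became -0.025, and between stages in controls Dnmt3a became -1.19 and Tet2 0.11.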
